A study of Homo sapiens with 12 samples.

Results

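The step from day 4 to day 10 of Ras-induced senescence was examined in fibroblasts whose interleukin-1 receptor had been depleted with a hairpin RNA (shIL1R), through 2 libraries at each day, 4 of the 12 libraries of the study. All libraries came from poly(A) RNA of IMR90 hTERT cells, human lung fibroblasts that carry the catalytic subunit of telomerase and RasERT2, an oncogenic Ras that tamoxifen switches on. The labels give 0.5 ug/ml doxycycline for hairpin induction in all cells, and 200 nM tamoxifen or ethanol afterwards. They do not say sample by sample which was used, and the day 4 and day 10 libraries were taken here as tamoxifen-treated. Growing cells were taken at day 0, cells at the onset of the senescence-associated secretory phenotype (SASP) at day 4 and senescent cells at day 10, and a scramble hairpin (shScr) served as the control at each day. Per the series text 2 separate hairpins targeted the receptor. Libraries of a group are numbered 1 and 2. The labels do not say whether these numbers mark hairpins, cultures or preparations, nor whether the cells were a clone or a pool. The p-values therefore measure the spread between libraries of a group, pooled over all 6 groups, part of which may be technical.

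Cellular senescence is a lasting exit from the cell cycle that is held by inhibitors of cyclin-dependent kinases and by the p53 and RB pathways. Senescent fibroblasts also secrete cytokines, chemokines, growth factors and proteases, together called the SASP. Interleukin-1 alpha and beta bind the receptor encoded by IL1R1, which signals through MYD88 and IRAK kinases to the transcription factor NF-kB, and NF-kB in turn raises many SASP genes, those of both ligands among them. The comparison shows which parts of the late programme took place in cells with less of this receptor.

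The promoters of 6 genes are shown as pairs from 3 groups described below, the mitosis, SASP and interferon lists. SPC25 and DLGAP5 encode mitotic proteins, CXCL1 and CXCL5 neutrophil-attracting chemokines, and MX1 and BST2 antiviral proteins induced by interferon. Each window is the 300 bases from 250 before to 50 after the RefSeq start of the gene, on the gene's strand, in GRCh38.p14. Capitals mark matches, on either strand, to CCAAT and TTTGAA (the core of the CHR element of cell cycle promoters) in the first pair, to an NF-kB-type motif (GGG and TTTCC with any 2 bases between them) in the second, and to an interferon response type motif (GAAA and GAAA with any 2 bases between them) in the third.
SPC25, chr2:168890381-168890680, minus strand: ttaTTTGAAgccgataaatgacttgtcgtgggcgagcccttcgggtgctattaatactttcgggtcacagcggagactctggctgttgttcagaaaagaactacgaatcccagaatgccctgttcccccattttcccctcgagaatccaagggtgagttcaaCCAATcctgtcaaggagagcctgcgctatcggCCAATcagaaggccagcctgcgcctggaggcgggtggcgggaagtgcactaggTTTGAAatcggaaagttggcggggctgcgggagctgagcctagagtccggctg
DLGAP5, chr14:55191536-55191835, minus strand: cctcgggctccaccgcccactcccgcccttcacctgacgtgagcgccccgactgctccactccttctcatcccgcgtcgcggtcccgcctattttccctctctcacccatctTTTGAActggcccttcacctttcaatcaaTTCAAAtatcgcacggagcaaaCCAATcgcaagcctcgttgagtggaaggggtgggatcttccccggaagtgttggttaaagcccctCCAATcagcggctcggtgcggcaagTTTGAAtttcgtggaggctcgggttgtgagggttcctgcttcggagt
CXCL1, chr4:73869143-73869442, plus strand: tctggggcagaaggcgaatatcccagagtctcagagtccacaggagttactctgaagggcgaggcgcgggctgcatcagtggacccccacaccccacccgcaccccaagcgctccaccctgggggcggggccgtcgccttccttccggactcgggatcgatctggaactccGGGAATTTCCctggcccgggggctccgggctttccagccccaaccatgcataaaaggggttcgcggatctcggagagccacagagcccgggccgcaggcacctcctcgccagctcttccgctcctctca
CXCL5, chr4:73998628-73998927, minus strand: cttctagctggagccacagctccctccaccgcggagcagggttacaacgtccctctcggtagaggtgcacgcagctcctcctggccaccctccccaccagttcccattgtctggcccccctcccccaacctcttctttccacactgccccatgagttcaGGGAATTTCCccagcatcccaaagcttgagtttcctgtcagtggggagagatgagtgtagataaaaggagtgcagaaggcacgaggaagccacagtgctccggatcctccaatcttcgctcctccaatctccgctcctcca
MX1, chr21:41420308-41420607, plus strand: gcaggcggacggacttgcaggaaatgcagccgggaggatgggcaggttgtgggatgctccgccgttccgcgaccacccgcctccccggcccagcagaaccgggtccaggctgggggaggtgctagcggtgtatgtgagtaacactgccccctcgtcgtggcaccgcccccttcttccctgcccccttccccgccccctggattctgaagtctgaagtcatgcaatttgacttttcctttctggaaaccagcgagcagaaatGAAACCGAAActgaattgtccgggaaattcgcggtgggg
BST2, chr19:17405581-17405880, minus strand: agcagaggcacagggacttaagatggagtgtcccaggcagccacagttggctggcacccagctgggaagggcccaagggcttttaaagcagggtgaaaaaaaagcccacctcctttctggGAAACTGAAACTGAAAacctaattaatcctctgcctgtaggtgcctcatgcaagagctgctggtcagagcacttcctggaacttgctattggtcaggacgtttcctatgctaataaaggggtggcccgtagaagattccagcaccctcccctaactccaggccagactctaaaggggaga
SPC25 held 2 matches each to CCAAT and TTTGAA, and DLGAP5 held 2 and 3. Both chemokine promoters carried the same 10 letters, GGGAATTTCC. The matches in BST2 overlap each other. A match describes the letters in this window and is not evidence that a factor bound there.

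The 4 libraries held 24140324 to 27345325 recovered gene-assigned reads, within the range of the series, and 13924 genes reached 10 normalized counts in at least 2 of the 12 libraries and were tested. The first principal component held 68.87% of the variance, and along it the shIL1R day 4 libraries lay at −5.11 and −11.18. The shIL1R day 10 libraries lay at 77.25 (replicate 1) and 45.95 (replicate 2), and the shScr day 10 libraries at 90.54 and 89.21. Replicate 2 of shIL1R day 10 thus stood apart from replicate 1, on the side of the day 4 libraries. The median absolute log2 difference between the 2 libraries of shIL1R day 10 was 0.252, against 0.101 to 0.152 in the other 5 groups. The share of reads on the ribosomal precursor RNA45S5 was 1.77% and 1.81% at day 4 and 3.0% and 2.65% at day 10, and its part in the results was not tested. Fibroblast markers were expressed in all 4 libraries except TBX4, which was at 0 to 2.26 normalized counts. Their levels differed widely, with S100A4 at 195 to 374, TCF21 at 297 to 461 and VIM at 178033 to 211171. The defining markers CDH5 of endothelium, CD3E of T cells, and CDH1 and KRT5 of epithelium were at 0 in all 4. Other members of these lists were not, with TEK at 1401 to 1818 normalized counts, KRT18 at 2148 to 2457, KRT8 at 419 to 640.0 and CD68 at 4337 to 8475, and their part in the results was not tested.

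IL1R1, the gene that the hairpins target, was low at both days. The shIL1R libraries held 731 and 378 normalized counts of IL1R1 at day 0. At day 4 they held 272 and 86.4, against 1546 and 1423 in shScr cells. At day 10 they held 295 and 279.9, against 1580.1 and 1239.6. All shIL1R libraries of these days lay below all shScr ones. From day 4 to day 10 the log2 fold change of IL1R1 in shIL1R cells was 0.90 ± 0.42 (limma adjusted p = 0.119), given here and below as the difference in log2(normalized count + 1) ± its standard error. Without replicate 1 of day 4 it was 1.72 (limma adjusted p = 0.00367), and without replicate 2 of day 4 0.08 (limma adjusted p = 0.871), so its value rests on which day 4 library is used. HRAS, a Ras gene, rose from 19278 and 15523 to 37518 and 25280.1 normalized counts, by 0.83 ± 0.17 (limma adjusted p = 0.00379). It rose in shScr cells as well, from 29774 and 23749.6 to 51791 and 50789, by 0.95 ± 0.17 (limma adjusted p = 0.00128). Replicate 2 held the lower value in shIL1R cells at both days. At day 0 HRAS was at 41321 and 41405 in shIL1R cells, above both of their day 10 libraries. In shScr cells it was at 43044 and 43386 at day 0, below both of their day 10 libraries. Whether reads of RasERT2 were counted as HRAS was not tested. The rise of HRAS in shIL1R cells was 0.55 (limma adjusted p = 0.0141) without replicate 1 of day 10.

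From day 4 to day 10, 5000 genes changed in shIL1R cells, 35.9% of those tested, at a limma p-value adjusted after Benjamini and Hochberg below 0.05. Of these 2451 were higher (17.6% of those tested) and 2549 lower (18.3%), and these shares are the background for the gene groups below. Both day 10 libraries lay above both day 4 libraries for 31.5% of the genes tested and below them for 30.6%. At least a 2-fold change was reached by 745 of the higher and 638 of the lower genes. The median log2 fold change over all genes was 0.01. Fitted on the 2 shIL1R groups alone, the count was 1901, 910 higher and 991 lower. The main fit used a spread shared by all 6 groups. The median difference between the libraries of a group was largest in shIL1R day 10, at 0.252. A fit that leaves out a library no longer holds the spread of that library's group. The adjusted p-value of such a fit, above and below, can be smaller at a smaller change and does not measure how firm a result is. In bulk RNA, a lower level in every cell and a smaller number of cells that express a gene cannot be told apart.

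**Figure D1:**
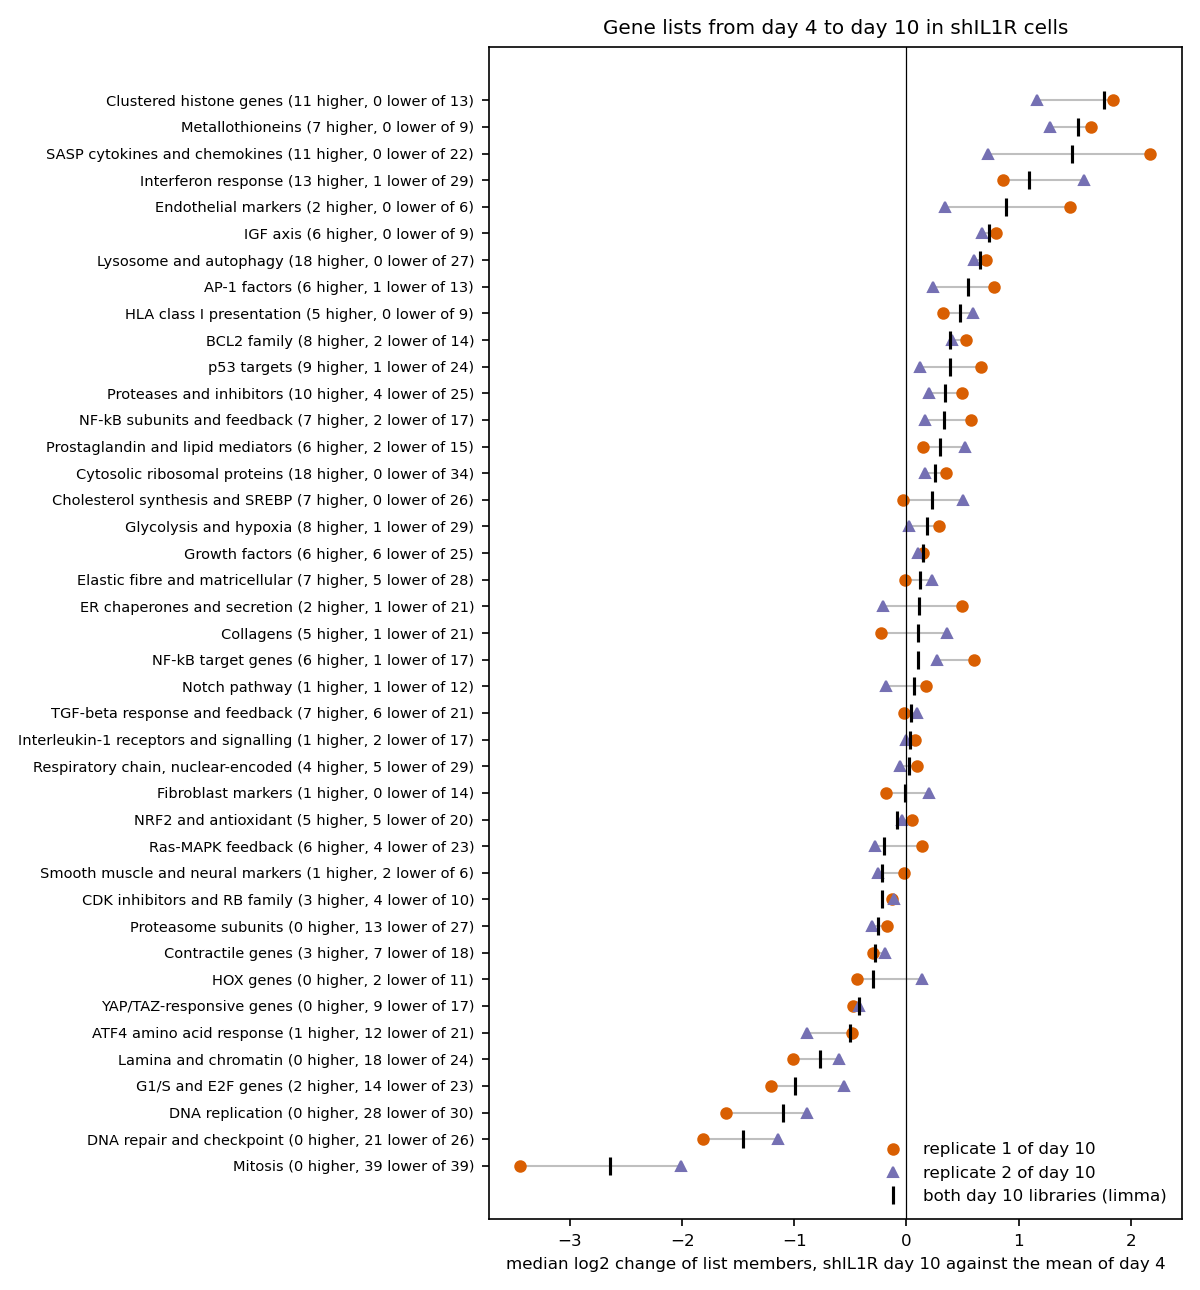
Each row is a gene list, and the horizontal axis is the median log2 change of its tested members from the mean of the 2 shIL1R day 4 libraries, for replicate 1 of day 10 (circles), replicate 2 (triangles) and the limma estimate from both (bars). The mitosis list lies lowest, at −2.64, and the SASP list shows the widest gap among the lists with higher members, 2.18 in replicate 1 against 0.72 in replicate 2.

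The largest falls belonged mainly to genes of cell division. SPC25, a kinetochore protein, had 148 and 148 normalized counts at day 4 and 3.60 and 27.1 at day 10, a log2 fold change of −3.71 ± 0.58 (limma adjusted p = 0.000785). HMMR, a microtubule-associated hyaluronan receptor, went from 429.8 and 408 to 15.6 and 65.5 (−3.66 ± 0.46, limma adjusted p = 0.000207). SGO1, which protects centromeric cohesion, went from 198 and 225 to 13.2 and 27.1 (−3.41 ± 0.37, limma adjusted p = 9.17e-05). In all 3 the day 4 libraries lay close together and the day 10 libraries below them, replicate 1 lowest. Without that library SPC25 was at −2.41. IQGAP3, NCAPG, PBK, ASPM, TTK, PLK4, DLGAP5 and NUF2, further genes of mitosis, centriole duplication or chromosome condensation, fell by −3.30 to −3.02. Genes outside this theme were also among the 15 largest falls. ESM1, a proteoglycan secreted by activated endothelium, went from 2305 and 2405 to 259 and 263 (−3.17 ± 0.22, limma adjusted p = 1.1e-05), with replicates alike at each day. HAPLN1, a hyaluronan link protein, went from 83.0 and 84.2 to 6.0 and 10.2 (−3.26 ± 0.46, limma adjusted p = 0.000398). APOBEC3B, a cytidine deaminase with close paralogs that could share reads, went from 165 and 186 to 12.0 and 16.9 (−3.53 ± 0.24, limma adjusted p = 1.1e-05).

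The largest rises were of a more mixed kind. CCL3, a macrophage-attracting chemokine, had 28.3 and 8.86 normalized counts at day 4 and 1962 and 132 at day 10, a log2 fold change of 4.91 ± 1.06 (limma adjusted p = 0.00493). Its day 10 libraries differed from each other more than the lower of them from day 4, and without replicate 1 the log2 fold change was 2.97 (limma adjusted p = 0.0179). PCLO, a presynaptic scaffold, went from 0 and 5.54 to 104 and 45.1 (4.77 ± 0.75, limma adjusted p = 0.000822), and SLC22A23, a transporter of the organic ion family, from 24.4 and 31.0 to 494 and 380.4 (3.93 ± 0.26, limma adjusted p = 1.1e-05). SLC22A23 was about equally high in both day 10 libraries. CXCR4, the receptor of CXCL12, went from 6.84 and 9.97 to 396 and 42.9 (3.83 ± 0.84, limma adjusted p = 0.00539), with replicate 1 of day 10 far above replicate 2, and was at 2.24 (limma adjusted p = 0.0207) without replicate 1. The muscle ubiquitin ligase TRIM63 had 2 reads at day 4 and 86 at day 10, a ratio of 48.0 with a 95% counting interval of 12.9 to 403. Such intervals come from reads summed over both libraries and do not cover the spread between them. The day 10 libraries held 86.3 (replicate 1) and 15.8 (replicate 2) normalized counts of TRIM63. The amino acid transporter SLC7A8 (3.94 ± 0.88, limma adjusted p = 0.00587), the keratinocyte proteins IVL (3.79 ± 0.75, limma adjusted p = 0.00296) and KRT17 (3.92 ± 0.54, limma adjusted p = 0.000377), and the heat shock gene HSPA6 (3.93 ± 0.91, limma adjusted p = 0.00681) also rose, KRT17 and HSPA6 with close paralogs that could share reads. In each of these 4 genes replicate 1 of day 10 lay above replicate 2. IVL was at 2.45 (limma adjusted p = 0.0119) and HSPA6 at 2.51 (limma adjusted p = 0.0404) without replicate 1 of day 10, and HSPA6 at 2.83 (limma adjusted p = 0.0647) without replicate 2 of day 4. OAS1, OAS2 and MX1, also among the 15 largest rises, are described with the interferon group.

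**Figure D2:**
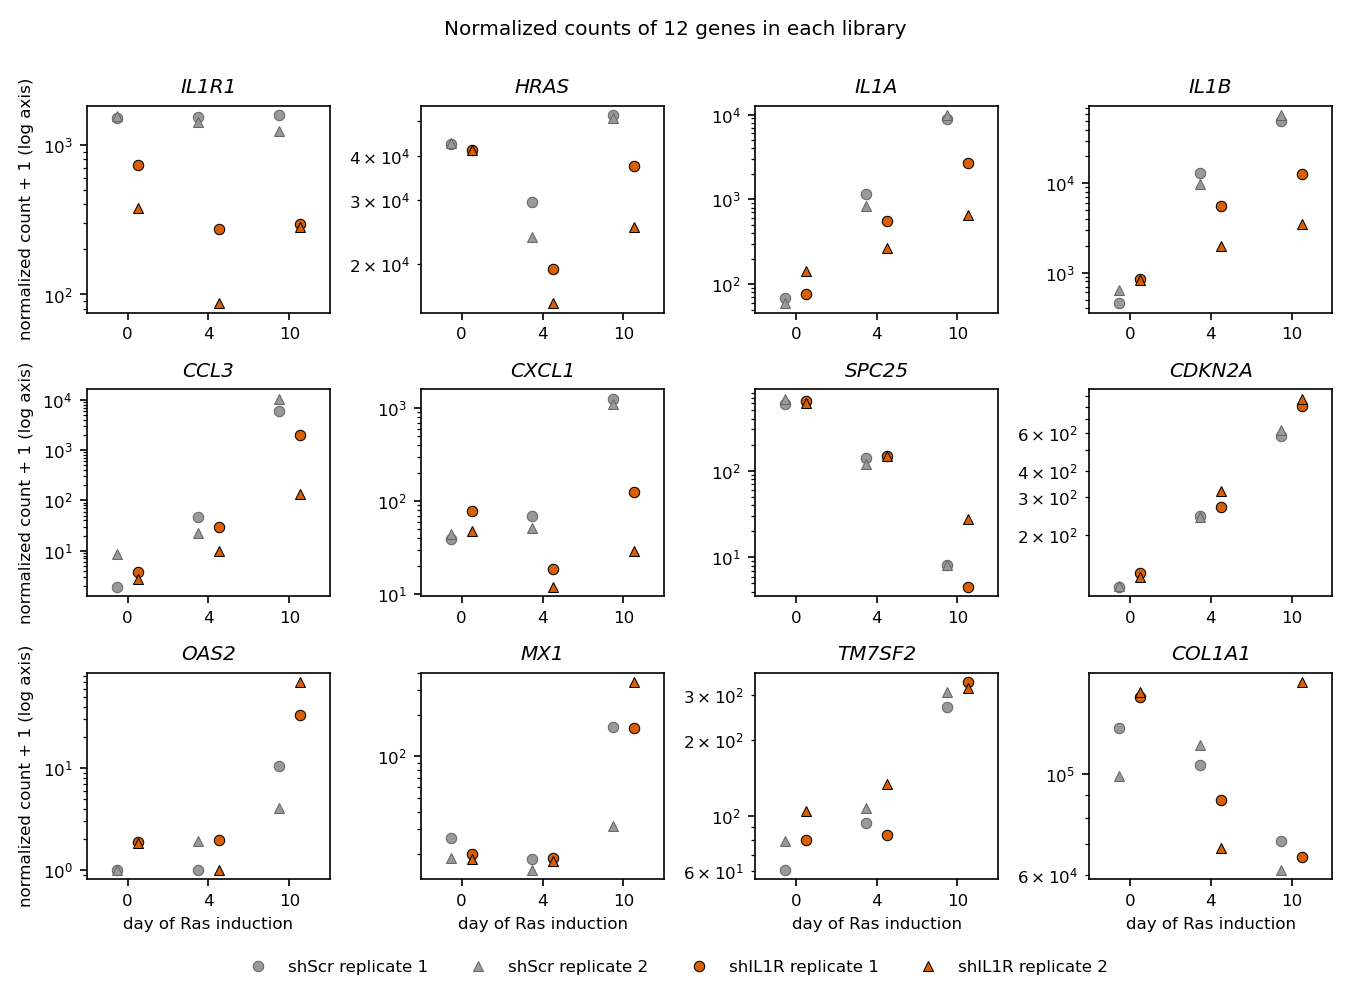
Each panel shows one gene, with normalized counts plus 1 on a log axis against the day of Ras induction for the 12 libraries (grey, shScr; orange, shIL1R; circles, replicate 1; triangles, replicate 2). In shIL1R cells at day 10 SPC25 is low in both libraries, CDKN2A is high in both, CCL3 and CXCL1 are higher in replicate 1, MX1 and COL1A1 are higher in replicate 2, and TM7SF2 is about equal in both.

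Cell division genes fell as whole groups. In the mitosis list 39 of 39 tested members fell and none rose, beside 18.3% of all genes that fell, and the median log2 fold change was −2.64 beside 0.01 over all genes. Every one of the 39 was lower in replicate 1 than in replicate 2 of day 10, with medians of −3.44 and −2.01 against the day 4 mean. CDK1, the mitotic kinase, went from 1013 and 1029 to 74.3 and 216 (−3.0 ± 0.35, limma adjusted p = 0.000132). TOP2A, which untangles chromosomes, went from 4733 and 4709.8 to 418 and 973 (−2.89 ± 0.28, limma adjusted p = 4.82e-05). MKI67, the proliferation marker Ki-67, went from 2092 and 2831 to 229 and 849 (−2.46 ± 0.43, limma adjusted p = 0.00152), and was at −1.52 without replicate 1 of day 10. These genes had already fallen before day 4, since both day 0 libraries lay above both day 4 libraries for all 39 members. The smallest declines of the list were those of AURKA (−1.40 ± 0.14, limma adjusted p = 5.09e-05) and INCENP (−1.05 ± 0.16, limma adjusted p = 0.000544).

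DNA replication genes fell in 28 of 30 cases with none higher (median −1.10). GINS2, part of the replicative helicase, went from 269 and 340.0 to 38.4 and 71.1 (−2.51 ± 0.23, limma adjusted p = 3.94e-05). CDC45, its partner, went from 257 and 313 to 40.8 and 80.1 (−2.29 ± 0.25, limma adjusted p = 8.84e-05), and RFC3, a clamp loader subunit, from 232 and 230.3 to 28.8 and 75.6 (−2.28 ± 0.32, limma adjusted p = 0.000405). Replicate 1 was again the lower day 10 library in all 3. Among G1/S and E2F genes 14 of 23 fell, led by the ribonucleotide reductase subunit RRM2, which went from 2757 and 3349.9 to 269.8 and 749 (−2.75 ± 0.33, limma adjusted p = 0.000155). Cyclin A2 (CCNA2) went from 883 and 1009 to 83.9 and 262 (−2.66 ± 0.36, limma adjusted p = 0.000348). The 2 members that rose were cyclins of G1, CCND2 (0.97 ± 0.22, limma adjusted p = 0.00587) and CCNE1 (0.76 ± 0.16, limma adjusted p = 0.00457). Of the repair and checkpoint genes 21 of 26 fell and none rose (median −1.46). They included the helicase BLM, from 175 and 212 to 12.0 and 33.9 (−3.18 ± 0.34, limma adjusted p = 8.84e-05). The Fanconi anaemia protein FANCD2 went from 323 and 496 to 24.0 and 99.3 (−3.0 ± 0.46, limma adjusted p = 0.000696), and was at −2.0 without replicate 1 of day 10.

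The promoters of these groups differed in the motifs they held. CCAAT was present in 25 of 33 mitosis promoters (75.8%) and TTTGAA in 24 (72.7%), beside 35.7% and 15.4% of all 27305 promoters in the RefSeq table and 36.3% and 9.83% of the 10917 promoters of genes tested. CCAAT was as frequent in the cholesterol list, in 16 of 20 promoters (80.0%), which held TTTGAA in 1 (5.0%). It was also in 10 of 18 SASP promoters (55.6%), 14 of 26 of DNA replication (53.8%) and 5 of 9 of AP-1 factors (55.6%). The interferon list held it in 7 of 22 (31.8%) and the NF-kB target list in 5 of 14 (35.7%). Of 26 DNA replication promoters 0 held TTTGAA, and 7 (26.9%) held the E2F-type motif TTTCCCGC, beside 1.66% of all promoters and 2.6% of those of genes tested. Among the promoters of all genes that fell CCAAT was present in 41.7% and TTTGAA in 17.1%, and among those of genes that rose in 32.2% and 7.05%. These shares are descriptions with no test.

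Inhibitors of the cell cycle moved in both directions. CDKN2A, the gene of p16 and ARF, rose from 269 and 320.0 to 809 and 874 (1.52 ± 0.12, limma adjusted p = 1.95e-05), and its neighbour CDKN2B, the gene of p15, from 964 and 893 to 2257 and 3079 (1.51 ± 0.18, limma adjusted p = 0.000133). Both day 10 libraries lay well above both day 4 libraries for these genes, and replicate 2 was not the lower one. CDKN1A, the p53 target p21, rose from 28391 and 18067 to 65270.1 and 37469.9 (1.13 ± 0.24, limma adjusted p = 0.00439), with replicate 1 higher at both days. CDKN2C, the gene of p18, fell from 148 and 196 to 32.4 and 91.4 (−1.62 ± 0.36, limma adjusted p = 0.00526), and RBL1, the RB relative p107, from 288 and 282 to 76.7 and 107 (−1.64 ± 0.15, limma adjusted p = 3.22e-05). CDKN1B, the gene of p27, fell by less (−0.67 ± 0.13, limma adjusted p = 0.00266). When replicate 1 of day 10 was left out CDKN1A was at 0.73 (limma adjusted p = 0.0176) and CDKN2C at −0.89 (limma adjusted p = 0.00606). Over the list 3 of 10 rose and 4 fell.

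Of the 24 p53 targets in the list used here, 9 rose and 1 fell (median 0.39). BTG2, an antiproliferative factor, went from 216 and 117 to 665 and 419 (1.72 ± 0.30, limma adjusted p = 0.00149), and BBC3, the death protein PUMA, from 347 and 342 to 945 and 524 (1.03 ± 0.22, limma adjusted p = 0.00453), at 0.60 (limma adjusted p = 0.0108) without replicate 1 of day 10. The exception was MDM2, the ubiquitin ligase of p53, which fell by −0.44 on the log2 scale (limma adjusted p = 0.00985) and was at −0.36 (limma adjusted p = 0.0788) without replicate 1 of day 4. Replicate 1 was the higher day 10 library for 21 of the 24, and 15 were called higher without replicate 2. Genes of the BCL2 family rose in 8 of 14 cases and fell in 2. The survival gene BCL2A1 went from 45.9 and 53.2 to 361 and 148 (2.20 ± 0.46, limma adjusted p = 0.00416), and the death gene BCL2L11, which encodes BIM, from 10.7 and 16.6 to 68.3 and 54.2 (2.10 ± 0.38, limma adjusted p = 0.0019). PMAIP1, the death protein NOXA, fell (−0.78 ± 0.11, limma adjusted p = 0.000499).

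Chromatin genes fell as a group, 18 of 24 with none higher (median −0.78). LMNB1, the lamin B1 whose loss marks senescence, went from 283 and 413 to 63.5 and 216 (−1.54 ± 0.41, limma adjusted p = 0.0148), with replicate 1 the lower day 10 library. It was at −0.66 (limma adjusted p = 0.0358) without that library, at −2.41 (limma adjusted p = 1.57e-05) without replicate 2 of day 10 and at −1.27 (limma adjusted p = 0.102) without replicate 2 of day 4. EZH2, the methyltransferase of Polycomb, went from 299 and 336 to 98.3 and 109 (−1.60 ± 0.18, limma adjusted p = 0.000106), with alike libraries at each day. The chromatin remodeller HELLS went from 167 and 177 to 24.0 and 58.7 (−2.16 ± 0.33, limma adjusted p = 0.000655), and HMGB2, a DNA-bending protein, from 1226 and 1506 to 483 and 562 (−1.38 ± 0.13, limma adjusted p = 4.42e-05). Clustered histone genes moved the other way, with 11 of 13 higher and none lower (median 1.76). HIST1H2BC went from 22.5 and 21.0 to 149.9 and 89.2 (2.36 ± 0.26, limma adjusted p = 9.17e-05), and HIST1H1C from 98.7 and 103 to 490.4 and 269.8 (1.84 ± 0.24, limma adjusted p = 0.000229). All 13 were higher in replicate 1 than in replicate 2 of day 10, and near-identical copies of these genes could share reads. Replicative histone transcripts normally lack a poly(A) tail, and the libraries were made from poly(A) RNA.

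The SASP cytokines and chemokines rose in 11 of 22 tested cases and fell in none (median 1.47), beside 17.6% of all genes that rose. Both shIL1R day 0 libraries lay above both day 4 libraries for 11 of the 22 members, beside 5326 of all 13924 genes. IL1A, one ligand of the depleted receptor, went from 559.7 and 267 to 2675 and 660.3 normalized counts (1.78 ± 0.54, limma adjusted p = 0.025). IL1B, the other, went from 5552 and 1989 to 12785 and 3527 (1.01 ± 0.53, limma adjusted p = 0.16), and its day 10 libraries straddled the higher day 4 library. For IL1A the groups did not overlap, but the estimate was 0.77 (limma adjusted p = 0.16) without replicate 1 of day 10 and 1.25 (limma adjusted p = 0.183) without replicate 2 of day 4. CXCL8, the neutrophil chemoattractant interleukin-8, went from 823 and 375 to 5272 and 884 (1.96 ± 0.66, limma adjusted p = 0.0396), and CXCL1 from 17.6 and 11.1 to 125 and 28.2 (2.02 ± 0.53, limma adjusted p = 0.0133). These were 0.67 (limma adjusted p = 0.28) and 0.96 (limma adjusted p = 0.0537) without replicate 1 of day 10, and 1.39 (limma adjusted p = 0.234) and 1.71 (limma adjusted p = 0.0884) without replicate 2 of day 4. The estimates without replicate 2 of day 10 were 2.79 (limma adjusted p = 0.000361) for IL1A, 3.24 (limma adjusted p = 0.000302) for CXCL8 and 3.07 (limma adjusted p = 7.23e-05) for CXCL1. IL6, a leading SASP cytokine, had 124 and 57.6 at day 4 and 199 and 97.1 at day 10 (0.71 ± 0.43, limma adjusted p = 0.226). Its day 10 libraries thus lay on both sides of the higher day 4 library. At day 0 the shIL1R libraries held 78.1 and 46.5 normalized counts of CXCL1 and 38.6 and 37.9 of CXCL5, above day 4. Those of IL1A were at 76.3 and 141 and those of IL1B at 854 and 835, below day 4.

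LIF, CSF1 and IL33 were raised to similar levels in both day 10 libraries. LIF, a cytokine of the IL-6 family, went from 1492 and 1001 to 2908 and 2733 (1.21 ± 0.17, limma adjusted p = 0.000357), and CSF1, the macrophage growth factor, from 692 and 530.5 to 1122 and 1378 (1.04 ± 0.15, limma adjusted p = 0.000532). IL33, a nuclear cytokine of the IL-1 family, went from 2.93 and 2.21 to 27.6 and 19.2 (2.76 ± 0.40, limma adjusted p = 0.000499). CCL20 (2.20 ± 0.63, limma adjusted p = 0.0195), CXCL3 (1.36 ± 0.47, limma adjusted p = 0.0447), CXCL5 (1.54 ± 0.43, limma adjusted p = 0.0178) and the TNF family ligand TNFSF15 (1.51 ± 0.32, limma adjusted p = 0.004) rose with replicate 1 the higher library. Without replicate 1 of day 10 CCL20 was at 1.21 (limma adjusted p = 0.145), CXCL3 at 0.50 (limma adjusted p = 0.337), CXCL5 at 0.85 (limma adjusted p = 0.114) and TNFSF15 at 0.88 (limma adjusted p = 0.00677), and without replicate 2 of day 10 CXCL3 was at 2.21 (limma adjusted p = 0.00101). Without replicate 2 of day 4 CCL20 was at 1.75 (limma adjusted p = 0.122) and CXCL3 at 1.33 (limma adjusted p = 0.139), and without replicate 1 of day 4 CXCL5 was at 1.20 (limma adjusted p = 0.12) and CXCL3 at 1.38 (limma adjusted p = 0.125). Over the list, replicate 1 of day 10 was above replicate 2 in 20 of 22 members. At day 4 the library numbered 1 was the higher one in 18 of 22, and the labels do not pair the numbers across days. With replicate 1 of day 10 left out 6 members were called higher and 1 lower, without replicate 2 of day 10 17 and 0, and without replicate 2 of day 4 6 and 0. The exceptions to the order of replicates were CCL2, a monocyte chemoattractant at 61.2 and 324 normalized counts at day 10, and CSF1. The NF-kB-type motif was present in 7 of 18 promoters of this list (38.9%), those of IL6, CXCL1, CXCL2, CXCL3, CXCL5, CXCL6 and CCL20, beside 1.92% of all promoters and 2.19% of those of genes tested. It was in 0 of 14 promoters of the list of further NF-kB targets described below.

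**Figure D3:**
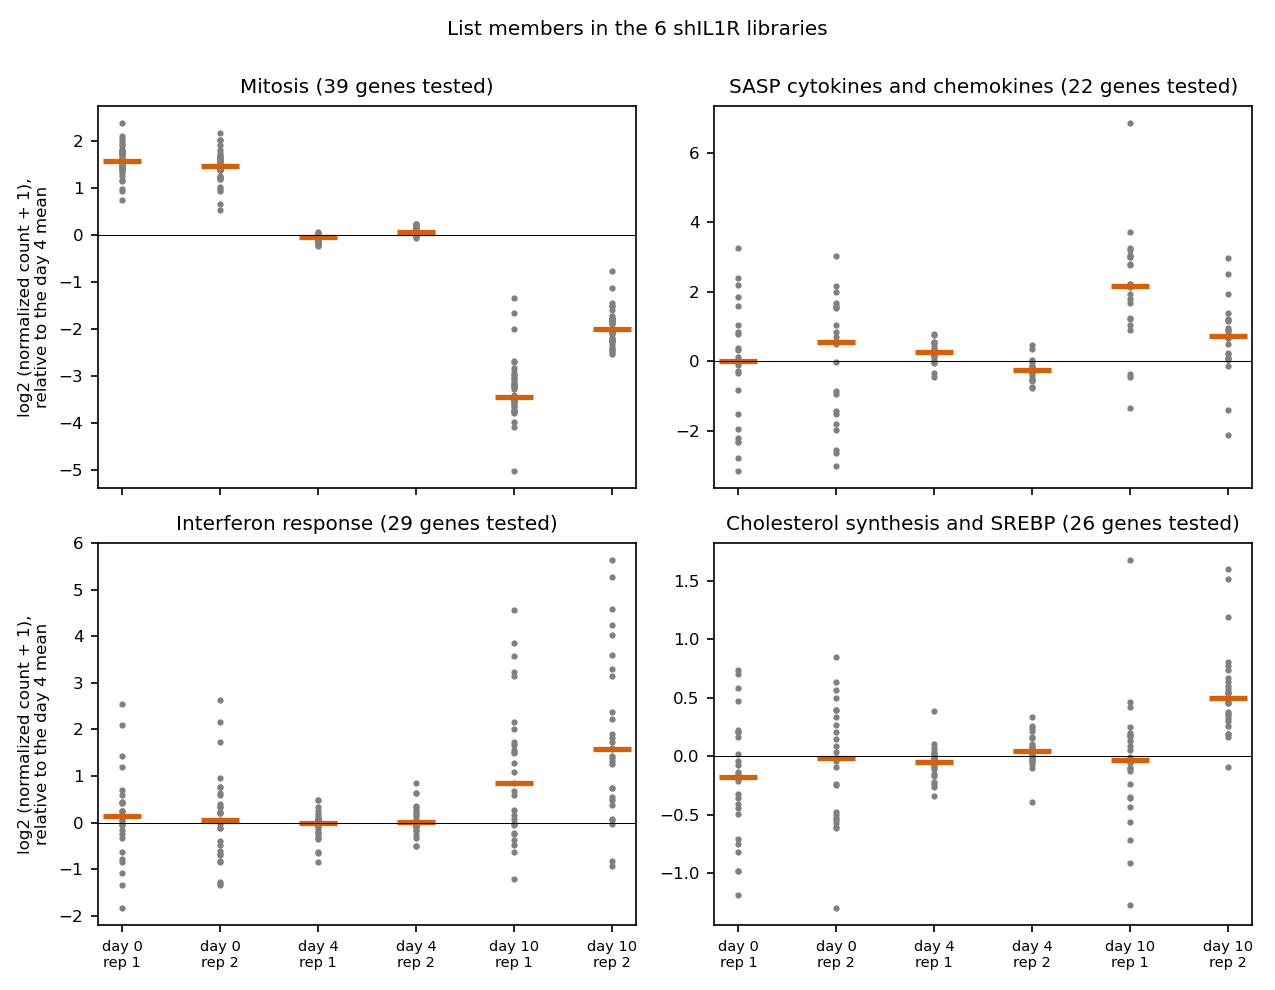
The 4 panels show members of a list as points in each of the 6 shIL1R libraries, on a vertical axis of log2(normalized count + 1) relative to the mean of the 2 day 4 libraries, with the median as a bar. Mitosis genes lie below 0 in both day 10 libraries, the SASP median is 2.18 in replicate 1 and 0.72 in replicate 2, the interferon medians are 0.86 and 1.58, and the cholesterol medians are −0.03 and 0.50.

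Components of the interleukin-1 pathway changed in few cases, with 1 of 17 higher and 2 lower. IL1RN, the receptor antagonist, had 2 reads at day 4 and 42 at day 10. The ratio was 23.5, with a 95% counting interval of 6.10 to 200. Its day 10 libraries held 40.8 (replicate 1) and 9.03 (replicate 2) normalized counts. IRAK3, a kinase-like brake on this pathway, fell from 179.7 and 148 to 112 and 88.0 (−0.72 ± 0.15, limma adjusted p = 0.00349), and MAP3K7, the kinase TAK1, from 1808 and 1862 to 1424 and 1442 (−0.36 ± 0.08, limma adjusted p = 0.00485). The accessory receptor IL1RAP (0.05 ± 0.15, limma adjusted p = 0.814) and the adaptor MYD88 (0.03 ± 0.17, limma adjusted p = 0.912) did not pass the test.

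NF-kB subunits and feedback genes rose in 7 of 17 cases and fell in 2, the latter no larger a share than the 18.3% of all genes. TRAF1, an adaptor of TNF receptors, went from 34.2 and 37.7 to 102 and 88.0 (1.38 ± 0.20, limma adjusted p = 0.000458), and the inhibitor NFKBIE from 370.2 and 288 to 1155 and 537 (1.27 ± 0.27, limma adjusted p = 0.00444), the latter at 0.72 (limma adjusted p = 0.00585) without replicate 1 of day 10. NFKBIZ, the nuclear regulator IkB-zeta, fell from 1504 and 1308 to 917 and 489 (−1.07 ± 0.28, limma adjusted p = 0.0135), at −0.61 (limma adjusted p = 0.0748) without replicate 2 of day 10 and −0.96 (limma adjusted p = 0.079) without replicate 1 of day 4. The feedback inhibitors NFKBIA (0.95 ± 0.39, limma adjusted p = 0.0841) and TNFAIP3 (0.52 ± 0.68, limma adjusted p = 0.588) did not pass, and both were higher in replicate 1 than in replicate 2 at each day. Among further NF-kB targets 6 of 17 rose and 1 fell. ICAM1, a leukocyte adhesion receptor, went from 1775 and 932 to 10411 and 2921 (2.10 ± 0.47, limma adjusted p = 0.00599), at 1.18 (limma adjusted p = 0.0165) without replicate 1 of day 10 and 1.64 (limma adjusted p = 0.0583) without replicate 2 of day 4. EBI3, a subunit of IL-27, had 0 reads at day 4 and 53 at day 10, at least 19.7-fold higher against a floor of 3 reads over the day 4 group. Its day 10 libraries held 51.6 (replicate 1) and 11.3 (replicate 2) normalized counts. Leaving out replicate 2 of day 4 lowered the calls to 2 of the feedback list and 3 of the target list, while the feedback list gave 3 without replicate 1 of day 10.

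Secreted proteases and their inhibitors rose in 10 of 25 cases and fell in 4, the latter no larger a share than the 18.3% of all genes. MMP3, stromelysin-1, went from 929 and 953 to 9779 and 3886 (2.71 ± 0.37, limma adjusted p = 0.000339), and MMP2, gelatinase A, from 12586 and 11441 to 28887 and 31350.2 (1.33 ± 0.09, limma adjusted p = 1.1e-05). MMP3 was higher in replicate 1 of day 10, while MMP2 was alike in both. SERPINF1, the antiangiogenic factor PEDF, went from 196 and 196 to 471 and 786 (1.63 ± 0.22, limma adjusted p = 0.000357), and the cysteine protease CTSK from 209 and 138 to 432 and 395 (1.27 ± 0.27, limma adjusted p = 0.00439). TIMP3 (0.98 ± 0.14, limma adjusted p = 0.000394) and TIMP1 (0.83 ± 0.10, limma adjusted p = 0.000179), which inhibit metalloproteinases, rose as well. MMP16, a membrane-bound metalloproteinase, fell (−1.22 ± 0.16, limma adjusted p = 0.000259). The 4 falls became 2 without replicate 2 of day 10 or without either library of day 4.

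The IGF axis rose in 6 of 9 cases, all of them genes of IGF-binding proteins, and fell in none. IGFBP4 went from 14699 and 12308 to 39601 and 35413 (1.48 ± 0.10, limma adjusted p = 1.1e-05), and IGFBP5 from 69261 and 73588 to 128821 and 161858 (1.02 ± 0.19, limma adjusted p = 0.00196). IGFBP2 rose from a lower level, 45.9 and 69.8 to 176 and 353 (2.12 ± 0.36, limma adjusted p = 0.00122), and IGFBP7, a known SASP protein, went from 6269 and 5425 to 12276 and 10669 (0.97 ± 0.11, limma adjusted p = 0.000113). No library of day 10 overlapped with day 4 for these 4 genes. Other growth factors were split, with 6 of 25 higher and 6 lower, beside 17.6% and 18.3% of all genes. GDF15, a stress-induced TGF-beta family member, went from 9273 and 7037 to 75159.8 and 19992 (2.26 ± 0.46, limma adjusted p = 0.00333), and the B chain of PDGF (PDGFB) from 64.5 and 39.9 to 168 and 199.8 (1.83 ± 0.30, limma adjusted p = 0.00108). GDF15 was at 1.31 without replicate 1 of day 10. FGF5 fell from 3769 and 3739 to 1054 and 1207 (−1.73 ± 0.15, limma adjusted p = 3.01e-05), and HGF, the hepatocyte growth factor, from 10529 and 11459.5 to 5144 and 5559.9 (−1.04 ± 0.08, limma adjusted p = 1.83e-05).

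Interferon-response genes rose in 13 of 29 cases and fell in 1 (median 1.09), and here replicate 2 was the higher day 10 library, in 25 of 29 members. MX1 went from 17.6 and 16.6 to 158 and 342 (3.69 ± 0.61, limma adjusted p = 0.00107), IFIT1, which binds viral RNA, from 10.7 and 27.7 to 73.1 and 221 (2.81 ± 0.53, limma adjusted p = 0.00218), and ISG15, a ubiquitin-like modifier, from 157 and 207 to 439 and 940.2 (1.83 ± 0.30, limma adjusted p = 0.00108). The groups did not overlap in these genes. OAS2, a sensor of double-stranded RNA, had 1 read at day 4 and 88 at day 10, a ratio of 98.3 with a 95% counting interval of 17.2 to 3925. Its day 10 libraries held 32.4 (replicate 1) and 68.8 (replicate 2) normalized counts. Its relative OAS1 had 3 and 104 reads, a ratio of 38.7 (12.9 to 191), with 22.8 and 95.9 normalized counts in replicates 1 and 2 of day 10. BST2, the antiviral tetherin, had 1 and 45 reads, a ratio of 50.3 (8.57 to 2029). Without replicate 2 of day 10 the log2 fold change of OAS1 was 3.24 (limma adjusted p = 0.108), and without replicate 1 or 2 of day 4 3.90 (limma adjusted p = 0.102) and 4.60 (limma adjusted p = 0.0617). The one member that fell was GBP1, a guanylate-binding protein, which went from 1071 and 953 to 440.1 and 568 (−1.01 ± 0.14, limma adjusted p = 0.000296). With replicate 1 of day 10 left out 17 members were called higher, and with replicate 2 left out 10.

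The interferon response type motif, which was added to the search after the values had been seen, was present in 15 of 22 promoters of the interferon list (68.2%), beside 3.65% of all promoters. Genes of HLA class I presentation, many of which interferon also induces, rose in 5 of 9 cases and fell in none. HLA-B went from 1992 and 2047 to 4318 and 4332 (1.10 ± 0.13, limma adjusted p = 0.000124), and B2M, the light chain of all class I molecules, from 27724 and 24879 to 40452 and 36089 (0.54 ± 0.11, limma adjusted p = 0.00411). HLA genes are near-identical in part and could share reads.

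The Ras pathway's own feedback genes were split, with 6 of 23 higher and 4 lower, the latter a share near the 18.3% of all genes. Their median log2 fold change was −0.20, at 0.13 without replicate 2 of day 10 and −0.28 without replicate 1. DUSP4, a phosphatase of MAP kinases, went from 555 and 629 to 1697 and 1353 (1.36 ± 0.14, limma adjusted p = 7.69e-05), and DUSP2 from 5.86 and 4.43 to 99.5 and 28.2 (3.15 ± 0.56, limma adjusted p = 0.00164). ETV1, an ETS factor, fell by −0.89 on the log2 scale (limma adjusted p = 0.000772). AP-1 factors rose in 6 of 13 cases. JUN went from 2819 and 2726 to 5354 and 5629 (0.99 ± 0.10, limma adjusted p = 4.88e-05), and ATF3, a stress-induced member, from 194 and 208 to 1067 and 461 (1.80 ± 0.30, limma adjusted p = 0.00117). FOSL1, the member that fell, went from 8504 and 8033 to 5865 and 4458 (−0.69 ± 0.15, limma adjusted p = 0.0055). JUN was alike in both day 10 libraries, while ATF3 was higher in replicate 1 and at 1.19 without it.

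In the TGF-beta group the ID genes, which encode dimerization partners that block basic helix-loop-helix factors, stood out by their fall. ID1 went from 2177 and 1594 to 350.1 and 489.8 (−2.17 ± 0.19, limma adjusted p = 3.29e-05), ID3 from 2297 and 2010.0 to 547 and 472 (−2.08 ± 0.21, limma adjusted p = 6e-05), and ID2 from 781 and 707 to 363 and 234 (−1.35 ± 0.25, limma adjusted p = 0.00188). BAMBI, a decoy receptor for TGF-beta, rose from 268 and 207 to 1128 and 516 (1.69 ± 0.32, limma adjusted p = 0.00217), and LTBP3, which holds latent TGF-beta, from 3018 and 2896 to 4921 and 6752 (0.96 ± 0.13, limma adjusted p = 0.000259). The list as a whole had 7 of 21 higher and 6 lower. Genes that respond to YAP and TAZ, coactivators controlled by cell tension, fell in 9 of 17 cases and rose in none. The matricellular proteins CYR61 and CTGF went from 25792 and 25287 to 6321 and 5725 (−2.09 ± 0.27, limma adjusted p = 0.000258) and from 21378 and 25411 to 11041 and 8103 (−1.30 ± 0.28, limma adjusted p = 0.00443). In the Notch list only 2 of 12 members passed the test. The ligand DLL4 fell from 4135 and 3168 to 994 and 933 (−1.91 ± 0.25, limma adjusted p = 0.000285), and the target gene HES4 was at 0.74 ± 0.24 (limma adjusted p = 0.0346), or 0.60 (limma adjusted p = 0.122) without replicate 2 of day 10 and 0.72 (limma adjusted p = 0.121) and 0.76 (limma adjusted p = 0.102) without replicate 1 or 2 of day 4.

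Matrix genes differed between the day 10 libraries. Collagens rose in 5 of 21 cases and fell in 1, but 8 were called higher and 1 lower without replicate 1, against 2 higher and 7 lower without replicate 2. The higher calls without replicate 1 or 2 of day 4 were 3 and 1. COL1A1, a chain of type I collagen, had 87537 and 68837 at day 4 and 65668 and 159731 at day 10, so the day 10 libraries lay on either side of day 4 (0.40 ± 0.31, limma adjusted p = 0.347). COL3A1, the type III chain, had 15328 and 15156 and then 6312 and 22979.9 (−0.34 ± 0.43, limma adjusted p = 0.575), with the same split. COL6A2 was higher in both, from 131201 and 117416 to 181955 and 227688 (0.71 ± 0.14, limma adjusted p = 0.00314), and the transmembrane collagen COL13A1 lower in both, from 5834 and 5652 to 3560.0 and 3876 (−0.63 ± 0.11, limma adjusted p = 0.00148). Among elastic fibre and matricellular genes 7 of 28 rose and 5 fell, the latter a share near the 18.3% of all genes. The microfibril protein MFAP4 went from 275 and 305 to 861 and 1148 (1.78 ± 0.23, limma adjusted p = 0.000253), and the crosslinking enzyme LOXL4 from 772 and 769.7 to 2138 and 2154 (1.48 ± 0.13, limma adjusted p = 2.72e-05). Elastin (ELN) fell from 22.5 and 16.6 to 2.40 and 4.51 (−2.23 ± 0.42, limma adjusted p = 0.00215). Contractile genes fell in 7 of 18 cases and rose in 3, the latter a share near the 17.6% of all genes. TAGLN went from 10110.5 and 10044 to 7375 and 5911 (−0.61 ± 0.15, limma adjusted p = 0.00943). The smooth muscle actin ACTA2 rose from 1818 and 1546 to 2751 and 2305 (0.59 ± 0.15, limma adjusted p = 0.0111), at 0.46 (limma adjusted p = 0.0535) without replicate 1 of day 10 and 0.47 (limma adjusted p = 0.0873) without replicate 2 of day 4.

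Genes of the lysosome and of autophagy rose in 18 of 27 cases and fell in none (median 0.66). GPNMB, a membrane glycoprotein of lysosomes, went from 49.8 and 44.3 to 781 and 419.9 (3.58 ± 0.41, limma adjusted p = 0.000123), and cathepsin D (CTSD) from 6946 and 7635 to 16498 and 16640.1 (1.19 ± 0.08, limma adjusted p = 1.1e-05). PSAP, the precursor of the saposins, went from 27632 and 28307 to 57148 and 55032 (1.00 ± 0.08, limma adjusted p = 1.96e-05). GLB1, the lysosomal beta-galactosidase whose activity is a marker of senescence, went from 3118 and 3226 to 5482 and 5067 (0.73 ± 0.08, limma adjusted p = 7.43e-05). For CTSD and PSAP the libraries were nearly alike within each day. Metallothioneins and the zinc exporter SLC30A1 rose in 7 of 9 cases, with MT1X from 125 and 90.8 to 838 and 464 (2.54 ± 0.26, limma adjusted p = 6e-05) and MT2A from 16063 and 17238 to 52170.5 and 44138 (1.53 ± 0.11, limma adjusted p = 1.49e-05), members of a family of close copies.

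The amino acid response driven by the factor ATF4 fell in 12 of 21 cases. PSAT1, an enzyme of serine synthesis, went from 2469 and 4353 to 675 and 837 (−2.12 ± 0.22, limma adjusted p = 7.69e-05), and ASNS, asparagine synthetase, from 3956 and 6453 to 1645 and 1395 (−1.74 ± 0.18, limma adjusted p = 7.6e-05). SLC7A11, the cystine importer, went from 1384 and 1934 to 476 and 471 (−1.79 ± 0.20, limma adjusted p = 0.000106). ATF3 was the one member that rose. In 19 of the 21 members replicate 2 of day 4 was above replicate 1. The NRF2 and antioxidant list had 5 of 20 members higher and 5 lower, the higher ones numbering 3 without replicate 1 of day 10. The ferritin light chain FTL rose from 48569 and 46592 to 187042 and 93802 (1.48 ± 0.24, limma adjusted p = 0.000989), at 0.98 without replicate 1 of day 10. GCLM, a subunit of the enzyme that starts glutathione synthesis, fell from 534 and 436 to 213 and 221 (−1.15 ± 0.11, limma adjusted p = 5.18e-05).

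Genes of cholesterol synthesis and SREBP, its main regulator, rose in 7 of 26 cases. Replicate 2 was above replicate 1 at day 10 in 24 of the 26. When replicate 1 of day 10 was left out 17 were called higher and none lower, and without replicate 2 2 higher and 4 lower. Without replicate 1 or 2 of day 4 the higher calls were 2 and 4. TM7SF2, a sterol reductase, rose in both libraries, from 83.0 and 133 to 338 and 321 (1.64 ± 0.24, limma adjusted p = 0.000475).

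Chaperones and secretory factors of the endoplasmic reticulum gave 2 of 21 higher and 1 lower, and the spread between libraries was wide at both days. HSPA5, the chaperone BiP, had 44589 and 128517 at day 4 and 198379.7 and 61620.2 at day 10 (0.55 ± 0.52, limma adjusted p = 0.451). HERPUD1, a factor of protein degradation at this membrane, had 5278 and 17580.2 and 10362 and 2795 (−0.84 ± 0.68, limma adjusted p = 0.366). Replicate 2 was above replicate 1 at day 4 in 19 of the 21 members, and replicate 1 above replicate 2 at day 10 in all 21. The labels do not pair these numbers across days. Without replicate 2 of day 10 5 were called higher and 1 lower, and without replicate 1 0 and 2. Without replicate 1 of day 4 the calls were 0 higher and 1 lower.

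Glycolysis and hypoxia genes rose in 8 of 29 cases and fell in 1. The carbonic anhydrases CA12 and CA9 went from 152 and 139.5 to 656 and 646 (2.15 ± 0.17, limma adjusted p = 1.83e-05) and from 113 and 68.7 to 302 and 360.0 (1.89 ± 0.26, limma adjusted p = 0.000378), and without replicate 2 of day 10 the count was 13 higher. Cytosolic ribosomal proteins rose in 18 of 34 cases by small amounts (median 0.25). RPS19 went from 17251 and 15895 to 28655 and 22973 (0.63 ± 0.10, limma adjusted p = 0.00109). All 34 were higher in replicate 1 of day 10, and 9 were called without it against 30 without replicate 2, and 12 and 9 without replicate 1 or 2 of day 4. Proteasome subunits fell in 13 of 27 cases and rose in none, with PSMA4 from 2759 and 2491 to 1701 and 1746 (−0.60 ± 0.08, limma adjusted p = 0.00031), and in 8 without replicate 1 of day 4. Of the nuclear-encoded respiratory chain genes 4 of 29 were higher and 5 lower, no larger shares than the 17.6% and 18.3% of all genes. Their median log2 fold change was 0.02, and 0.09 without replicate 2 of day 10.

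Among fibroblast markers 1 of 14 rose and none fell (median −0.01), though 5 were called higher without replicate 1 of day 10 and 5 lower without replicate 2. The HOX genes, which record position along the body axis, fell in 2 of 11 cases, a share near the 18.3% of all genes. Without replicate 1 of day 10 2 were called higher and none lower, and without replicate 2 of day 10 none higher and 5 lower. The 2 that fell were HOXB3 from 1800.3 and 1865 to 1041 and 1585 (−0.51 ± 0.17, limma adjusted p = 0.034) and HOXB2 from 1735 and 1793 to 1297 and 1521 (−0.33 ± 0.10, limma adjusted p = 0.0243). Without replicate 1 of day 10, or replicate 1 or 2 of day 4, no HOX gene fell, and HOXB3 was at −0.21 (limma adjusted p = 0.218), −0.54 (limma adjusted p = 0.0976) and −0.49 (limma adjusted p = 0.128). HOXB2 was then at −0.21 (limma adjusted p = 0.119), −0.35 (limma adjusted p = 0.0688) and −0.30 (limma adjusted p = 0.107). HOXB3 was at −0.82 (limma adjusted p = 0.000547) without replicate 2 of day 10. Of the leukocyte markers 2 of 4 tested rose (median 1.05), the integrin ITGAX, from 6.84 and 8.86 to 113 and 49.7 (3.11 ± 0.43, limma adjusted p = 0.000384), and the lysosomal glycoprotein CD68, from 4737 and 4337 to 8475 and 5782 (0.63 ± 0.15, limma adjusted p = 0.00962), at 0.35 (limma adjusted p = 0.0409) without replicate 1 of day 10 and 0.56 (limma adjusted p = 0.0642) without replicate 2 of day 4. The other tested members did not pass the test. LAPTM5 went from 7.8 and 3.3 normalized counts at day 4 to 37.2 and 6.8 at day 10. CORO1A went the other way, from 88.9 and 52.0 to 48.0 and 24.8. The defining leukocyte marker PTPRC reached at most 2.40 normalized counts in the 4 libraries. The summed level of the 10 leukocyte markers was 4412 to 4851 normalized counts at day 4 and 5875 to 8681 at day 10, most of it from CD68. None of 4 tested epithelial markers passed the test (median 0.17), and 1 was called higher without replicate 1 of day 10.

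**Figure D4:**
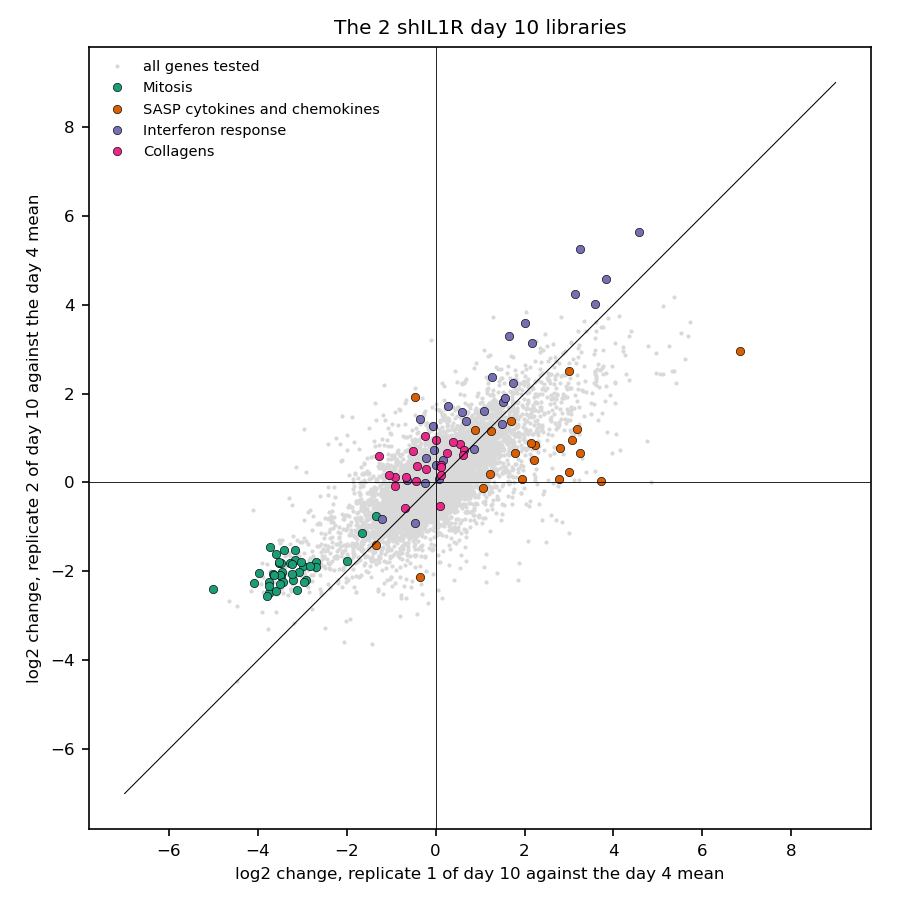
Each point is a gene, with the log2 change of replicate 1 of shIL1R day 10 from the mean of the 2 day 4 libraries on the horizontal axis and that of replicate 2 on the vertical axis, and with the diagonal marking equal change. Mitosis genes lie above the diagonal on the side of the falls, SASP genes mostly below it, and collagens and interferon-response genes mostly above it.

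The day 10 libraries thus differed along several gene groups at once. Replicate 1 was the lower one for all 39 mitosis genes and for 25 of 30 DNA replication genes, and the higher one for 20 of 22 SASP genes and all 21 genes of the endoplasmic reticulum list. Replicate 2 was the higher one for 20 of 21 collagens, 24 of 26 cholesterol genes, 25 of 29 interferon genes and 10 of 11 HOX genes. Over all 13924 genes, replicate 1 lay farther from day 4 in 53.9%, and over the genes called higher and lower in 58.7% and 57.1%. What sets these libraries apart, a hairpin, a culture or a preparation, cannot be told apart from the labels.

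The same step in shScr cells gave 6147 called genes (44.1%), 3023 higher (21.7%) and 3124 lower (22.4%). Of the genes higher in shIL1R cells 1831 were also higher in shScr cells, 74.7% of the shIL1R genes and 60.6% of the shScr genes, and 7 were lower there. Of those lower 1947 were shared, 76.4% and 62.3%, and 5 were higher in shScr cells. The mitosis list had a median of −3.13 in shScr cells against −2.64, and the SASP list 3.14 against 1.47, with 18 of 22 higher in shScr cells. IL6 rose there from 375 and 166 to 1899.9 and 1801 (2.89 ± 0.43, limma adjusted p = 0.00039), and CXCL8 from 2426 and 1099 to 38965 and 44346 (4.67 ± 0.66, limma adjusted p = 0.000275). The difference between the genotypes did not pass the test for either gene, at −2.18 ± 0.61 (limma adjusted p = 0.223) and −2.71 ± 0.94 (limma adjusted p = 0.295), so a smaller step is not shown for each of them alone. Interferon-response genes had a median of 0.42 in shScr cells, with 9 higher and 6 lower, and no member differed between the genotypes by the test.

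Tested as an interaction, the change from day 4 to day 10 differed between the genotypes for 11 genes, 0.079% of those tested, 4 with the larger value in shIL1R cells (0.0287%) and 7 with the smaller one (0.0503%). CXCL5 rose in shIL1R cells from 5.86 and 9.97 to 39.6 and 14.7 normalized counts and in shScr cells from 27.6 and 27.4 to 1972 and 3864, a difference of −5.06 ± 0.61 (limma adjusted p = 0.0168) on the log2 scale. IRAK3 fell from 179.7 and 148 to 112 and 88.0 in shIL1R cells and rose from 190.2 and 190.2 to 496 and 462 in shScr cells (−2.04 ± 0.21, limma adjusted p = 0.0114). SOD2, the mitochondrial superoxide dismutase and an NF-kB target, went from 2584 and 2131 to 3705 and 2931 and from 3122 and 2783 to 11317 and 12729.9 (−1.54 ± 0.18, limma adjusted p = 0.0163). In all 3 the day 10 libraries of shIL1R cells lay below those of shScr cells, and replicate 2 was the lower of them. CST4, a salivary cystatin with close paralogs, rose from 69.4 and 89.7 to 954 and 757 and from 36.1 and 53 to 2452 and 2617 (−2.41 ± 0.35, limma adjusted p = 0.0383).

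The iron transporters SLC11A2, of the plasma and endosomal membrane, and SLC25A37, of the mitochondrion, rose in shScr cells by more than they changed in shIL1R cells. SLC11A2 had 1015 and 1259 and then 1216 and 1116 there, against 1164 and 999 and then 2488 and 2737 in shScr cells (−1.23 ± 0.17, limma adjusted p = 0.0319). SLC25A37 had 1201 and 1264 and then 1603 and 1466, against 1012 and 975 and then 2808 and 2387 (−1.07 ± 0.15, limma adjusted p = 0.0383). LRRC15, a membrane protein of activated fibroblasts, had 314 and 364 and then 219 and 307, against 355 and 312 and then 726 and 1021 (−1.75 ± 0.26, limma adjusted p = 0.0474). The other 4 genes fell in shScr cells and fell less, or did not pass the test, in shIL1R cells. XRCC4, which joins DNA ends with ligase IV, went from 266 and 265 to 183 and 164, against 317 and 313 to 81.4 and 82.0 (1.32 ± 0.17, limma adjusted p = 0.0253). LIN7A, a scaffold of cell junctions, had 229 and 196 and then 174 and 209.9, against 249 and 261 and then 73.2 and 59.8 (1.78 ± 0.25, limma adjusted p = 0.0319). LYPD1, a membrane protein of the LY6 family, was at 1.10 ± 0.13 (limma adjusted p = 0.0163), and LMO7, a junction and actin protein, at 1.01 ± 0.15 (limma adjusted p = 0.0383).

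**Figure D5:**
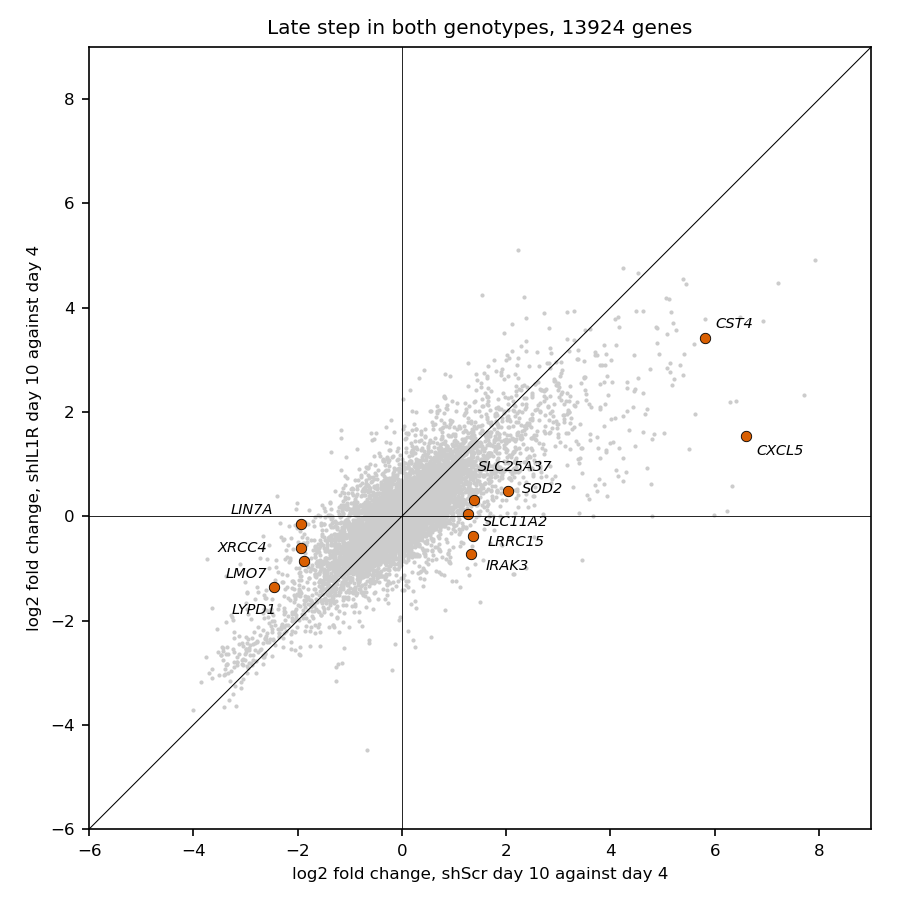
Each point is a gene, with its log2 fold change from day 4 to day 10 in shScr cells on the horizontal axis and in shIL1R cells on the vertical axis, and with the diagonal marking equal change. The 11 labelled genes (orange) passed the test of the difference, CXCL5 lying farthest from the diagonal among them.

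This count of 11 depended on single libraries. A fit without a library no longer holds the spread of its group, which was widest in shIL1R day 10, so these counts are not like for like. Leaving out a day 10 library of shIL1R gave 1409 (replicate 1) or 20 (replicate 2), and leaving out a day 4 library of shIL1R gave 20 (replicate 1) or 2 (replicate 2). It was 5 without either library of shIL1R day 0, which enters only through the shared spread. It was 0 in limma when any library of shScr at day 0 or day 4 was left out, or replicate 2 of shScr at day 10, with 1121 to 1641 genes at an unadjusted p below 0.05. At an unadjusted p below 0.05, 1739 genes differed. The 11 genes kept their sign under all 24 settings tried, and IRAK3 and SOD2 were called in 18 of them, the highest number. Because the 11 were picked for a large difference in these same data, the kept sign is no separate support.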

How the data were processed

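Poly(A) RNA of 12 libraries, 6 groups of 2, was sequenced from strand-specific preparations. The values are normalized counts per gene as deposited, a signal equal to reads over a scaling factor of the library. The submitters' processing notes name TopHat, HTSeq, DESeq2 and hg19, with no version or role. Which annotation was used, and whether counting used strand, is not given in the sources used here. Dividing each value by the value of 1 read (0.835 to 1.20 normalized counts over the 12 libraries) gave whole reads for 100% of values within 0.001 reads, in totals of 24140324 to 30127727 per library. Counting intervals and floors cover counting error only.

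Of 27106 genes, 6344 were at 0 in all libraries. The 13924 genes that reached 10 normalized counts in 2 or more libraries were fitted with limma 3.58.1 in R 4.3.3 on log2(value + 1), with all 12 libraries in the fit, 1 mean per group and a mean-variance trend in eBayes. The residual degrees of freedom were 6 and the prior ones 4.98. Two-sided p-values were adjusted after Benjamini and Hochberg over all genes tested, and genes below 0.05 were called. The contrasts were day 10 against day 4 in shIL1R cells, the same in shScr cells, and their difference. The pipeline was run on simulated data in which all libraries had the same dispersion. That run does not cover the wider spread of the shIL1R day 10 libraries.

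The members, gene lists and tests were chosen with earlier results of these data known. The rule names IL1R1, IL1A, IL1B, HRAS, the 15 largest changes each way among called genes whose libraries do not overlap and whose higher group has a mean of 50 or more, up to 4 called members per list (2 where none was called), and the called genes of the difference. Further members named, such as IL6, CDK1, MKI67, GLB1, COL1A1 and HSPA5, were chosen after their values were seen, for their known roles. A few genes are not reported here. Promoters came from RefSeq for 10996 of the 13924 genes tested.

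Replicate numbers were not used to pair libraries, since the labels state no pairing and only 2 numbers exist. Alternatives were pseudocounts of 0.5 and 5, filters, TMM and quantile scaling, a replicate block, fits without the other groups or with robust eBayes, count tests of the recovered reads (DESeq2 1.42.0 and edgeR 4.0.16), a threshold of 2-fold, and the omission of each library. A fit with a group of 1 library assumes that it varies like the others.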

Additional observations from a re-analysis of the deposited data

Results flagged for a closer look

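For 11 genes the change from day 4 to day 10 differed between shIL1R and shScr cells by a test of the difference itself, the interaction contrast of the limma fit over all genes. The difference of log2 fold changes, shIL1R minus shScr, was negative for CXCL5 (−5.06), CST4 (−2.41), IRAK3 (−2.04), LRRC15 (−1.75), SOD2 (−1.54), SLC11A2 (−1.23) and SLC25A37 (−1.07). It was positive for LIN7A (1.78), XRCC4 (1.32), LYPD1 (1.10) and LMO7 (1.01). IRAK3 was the one gene of the 11 that was called in opposite directions, lower in shIL1R cells (−0.72) and higher in shScr cells (1.33).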

How the results depend on the processing

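The count of 5000 genes in the shIL1R step was 4654 to 5044 under the other pseudocounts, filters, scalings, robust eBayes, edgeR and DESeq2. It was 1901 with the compared groups alone in the fit, 1383 at a 2-fold threshold, and 3345 to 5336 with each library left out. In shScr cells it was 6162 with the compared groups alone, 1928 at a 2-fold threshold and 4359 to 7075 with each library left out, against 6147. The 11 genes of the difference became 21 with a pseudocount of 5, 17 with quantile normalization, 153 with DESeq2, and 0 with the compared groups alone (limma, 1213 genes at an unadjusted p below 0.05, while edgeR on all libraries called 13). With each library left out the count ran from 0 to 1409. The causes were not tested.

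With a replicate block across all libraries the counts were 4974, 6137 and 11 for the shIL1R step, the shScr step and the difference, and within genotype 4915, 6085 and 3. The deviations of replicate 2 from replicate 1 correlated across genes at 0.20 between shIL1R day 4 and day 10, and the labels state no pairing. Of 180 named genes called in the step 119 kept the call under every setting, and none of the 11 genes of the difference did, while none of either set changed sign. Both sets were picked for passing the test in these data, so the kept sign adds no support. With 2 libraries a group, and the day 10 libraries of shIL1R apart, precision is limited by the number of libraries, and read depth limits the genes with few reads.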

Other observations

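Genes of prostaglandin and lipid mediator synthesis rose in 6 of 15 cases and fell in 2 in the shIL1R step, the latter no larger a share than the 18.3% of all genes. PTGIR, the prostacyclin receptor, went from 45.9 and 47.6 to 137 and 143 normalized counts (1.56 ± 0.25, limma adjusted p = 0.000924), and PTGDS, a prostaglandin D synthase, from 11.7 and 6.64 to 45.6 and 38.4 (2.12 ± 0.39, limma adjusted p = 0.00207). PLA2G4A, the phospholipase that releases arachidonic acid, fell from 372 and 352 to 245 and 183 (−0.77 ± 0.17, limma adjusted p = 0.0051). The day 10 libraries did not overlap with day 4 for these 3 genes. Without replicate 1 of day 4 3 of the list were called higher.

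Of the endothelial markers 2 of 6 tested rose (median 0.89), VWF from 19.5 and 12.2 to 52.8 and 56.4 (1.76 ± 0.51, limma adjusted p = 0.02) and the receptor TIE1 from 157 and 126 to 325 and 199 (0.85 ± 0.30, limma adjusted p = 0.0492), while CDH5 and EMCN were at 0 in all 4 libraries. Without replicate 2 of day 10 VWF was at 1.71 (limma adjusted p = 0.0534), and without replicate 1 of day 10 TIE1 was at 0.49 (limma adjusted p = 0.268). No endothelial marker was called without replicate 2 of day 4, where VWF was at 1.44 (limma adjusted p = 0.123) and TIE1 at 0.69 (limma adjusted p = 0.217), and 1 was called without replicate 1 of day 4, where TIE1 was at 1.00 (limma adjusted p = 0.0827). The summed level of the 10 endothelial markers was 1656 to 2010 normalized counts at day 4 and 2068 to 2208 at day 10, most of it from TEK. MIR924HG, a noncoding host gene that lay below the level required for a named gene, had 15.6 and 28.8 at day 4 and 0 in both day 10 libraries, and 6.66 and 1.89 and then 1.18 and 3.04 in shScr cells. Its difference between the genotypes did not pass the test, at −3.81 ± 0.75 (limma adjusted p = 0.111), and it was chosen after its values were seen.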
